A study of Homo sapiens with 36 samples.

Results

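The 10 heat shock chaperone genes described here are HSPA1A, HSPA1B, HSPA8, HSPH1, HSP90AA1, HSP90AB1, DNAJB1, HSPB1, HSPD1 and BAG3, found by gene name among the 29744 genes of the deposited gene count table. Each name was found, and all 10 passed the filter on low counts that left 14988 genes for testing. The libraries are poly-A RNA-seq of BxPC-3, a human cell line established from a pancreatic adenocarcinoma, given as wild type in the labels. Cells in 6-well plates received DMSO or 1 of 5 compounds at 3 µM (JQ1, MS78, TRAP1, TRAP-1-NegP and TRAP-1-NegB) for 2 h or 4 h. That made 12 groups of 3 libraries, 36 in all. JQ1 is a known inhibitor of BET bromodomain proteins, and DMSO is the solvent control. The labels do not say what NegB and NegP stand for, nor whether the 3 libraries of a group came from separate cultures. The p-values therefore measure only the spread between libraries of a group, estimated over all 12 groups together. TRAP1 in this text is the compound, except where the gene of that name, which encodes a mitochondrial HSP90, is named as a gene.

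Heat shock proteins are chaperones that hold, fold or hand on other proteins. HSP70 proteins bind unfolded stretches of a client in a cycle driven by ATP: J-proteins such as DNAJB1 deliver the client and start hydrolysis, and exchange factors such as HSPH1 and BAG3 release it. HSP90 proteins take over partly folded clients, among them many kinases and hormone receptors, HSPB1 is a small heat shock protein that holds unfolded proteins without ATP, and HSPD1 is the chaperonin of the mitochondrial matrix. Heat shock factor 1 (HSF1) induces many of these genes when unfolded protein accumulates, and it binds inverted repeats of the unit GAA, called heat shock elements, near their start sites.

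Stretches of DNA around such repeats are shown because 8 of the 10 members hold such a repeat and the rule that chose them did not use it. They were read from RefSeq windows (GRCh38.p14) that run 250 bases upstream of an annotated start and 50 bases into the gene, and all 10 members matched at least 1 window. Both strands were searched for a repeat of 2 units, GAANNTTC or TTCNNGAA, and for a repeat of 3 units, GAANNTTCNNGAA or TTCNNGAANNTTC, each of which contains both 2-unit forms. The 2-unit repeat stood in a window of 8 of the 10 members and of 16.2% of 27305 genes with a window. For this and the 3-unit repeat, a gene was counted when any of its windows held it, and several members have more than 1 window. HSPA1A and HSPA1B, near-identical upstream of their starts, count as 2 of the 8. The 3-unit repeat stood in windows of HSPA8, HSP90AA1, HSP90AB1 and HSPD1, 4 of 10, and of 0.608% of all genes. Neither was in the windows of HSPH1 and BAG3, which says only that these letters are not there. The sequences follow 5′ to 3′ on the gene's strand, with the repeats in capitals and the rest in lower case.
HSPA1A (chr6:31815422-31815459, plus strand): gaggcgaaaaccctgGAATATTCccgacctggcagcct
HSPA1B (chr6:31827618-31827655, plus strand): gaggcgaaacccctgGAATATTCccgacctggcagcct
HSPA8 (chr11:123062164-123062206, minus strand): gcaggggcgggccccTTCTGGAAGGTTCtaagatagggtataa
HSP90AA1 (chr14:102087090-102087147, minus strand): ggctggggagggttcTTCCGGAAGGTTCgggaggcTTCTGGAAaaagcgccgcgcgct
HSP90AB1 (chr6:44247816-44247858, plus strand): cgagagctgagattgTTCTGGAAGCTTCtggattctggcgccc
DNAJB1 (chr19:14518422-14518489, minus strand): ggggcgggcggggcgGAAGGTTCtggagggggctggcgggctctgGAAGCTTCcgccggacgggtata
HSPB1 (chr7:76302476-76302513, plus strand): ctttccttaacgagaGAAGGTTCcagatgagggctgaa
HSPD1 (chr2:197500053-197500090, minus strand): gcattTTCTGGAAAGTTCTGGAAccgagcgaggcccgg
The repeats lie upstream of the start in each of these windows, from 40 to 61 bases at the nearest end in HSPA8, HSP90AA1 and DNAJB1 to 228 bases in HSPD1. In annotation GENCODE v29 (GRCh38), HSPA1A spans chr6:31815464-31817946, HSPA1B chr6:31827735-31830255, HSP90AB1 chr6:44246166-44253888, HSPB1 chr7:76302544-76304295 and BAG3 chr10:119651370-119677819 on the plus strand. HSPA8 spans chr11:123057489-123063230, HSPH1 chr13:31134974-31162388, HSP90AA1 chr14:102080738-102139699, DNAJB1 chr19:14514770-14529770 and HSPD1 chr2:197486581-197516737 on the minus strand. HSPA8 and HSP90AB1 each have a second 3-unit repeat in the same window, not printed. For HSP90AA1, HSP90AB1, DNAJB1 and HSPD1, which have several annotated starts, the first annotated window held no repeat and a later one did. HSPA1A and HSPA1B are neighbours on chromosome 6 with near-identical sequence: 235 of the 250 bases upstream of their starts are the same, 93.6% of those aligned. Salmon divides reads that fit both, and HSPA1A held 55.2% ± 0.949 (SD, n = 3) of the pair's counts in DMSO at 2 h and at most 60.2% in any of the 36 libraries. The separate values of the pair are therefore uncertain.

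Total estimated counts per library ran from 15288688 to 26608325. MS78 2 h replicate 1 and TRAP1 4 h replicate 1 stood apart from their group. Libraries of a group differed by a chi-square of 4.51 to 44.5 per degree of freedom, and the highest values were those of the MS78 library, so no pair of libraries agreed within sampling noise. TMM factors, which rescale each library for its composition, were 0.837 to 0.862 in the TRAP1 4 h group, 1.01 to 1.03 in DMSO at 4 h and up to 1.10 elsewhere. The 8 epithelial markers (KRT7, KRT8, KRT18, KRT19, EPCAM, CDH1, CLDN4, CLDN7) summed to 9039 to 12080 TPM per library, against 2.99 to 6.95 TPM for 8 mesenchymal markers. The 7 haematopoietic and endothelial markers in the table summed to 20.4 to 31.7 TPM, of which CD68 alone was 17.5 to 27.6, and PTPRC was at or near 0. COL1A2, COL3A1, DCN, LUM and PDGFRB were at 0 in some libraries. The epithelial sum was highest in the TRAP1 4 h libraries, 11831 to 12080 TPM, against 10258 to 11118 TPM in DMSO at 4 h. All 8 of those markers were called higher there, where 22.2% of all tested genes were. The part of markers or TMM factors in the results below was not tested.

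On the scale of deposited TPM, which allows for transcript length, HSPA8 was the most abundant member in DMSO at 2 h with 1588 ± 15.6 (SD, n = 3), followed by HSP90AA1 with 1393 ± 46.2 and HSP90AB1 with 1062 ± 18.4. HSPD1 stood at 499 ± 5.52 and HSPB1 at 406 ± 15.6. The inducible HSP70 genes and DNAJB1 were lower, at 174 ± 3.84 for HSPA1A, 136 ± 3.20 for HSPA1B and 134 ± 5.63 for DNAJB1, and BAG3 (114 ± 1.23) and HSPH1 (89.0 ± 5.84) were lowest. Together the 10 genes made up 0.560% ± 0.00602 of all TPM in DMSO at 2 h and 0.609% ± 0.0219 at 4 h. The share was 0.801% ± 0.0113 and 0.848% ± 0.0259 with TRAP1, 0.732% ± 0.00461 and 0.822% ± 0.00747 with TRAP-1-NegP, and 0.814% ± 0.0170 and 1.01% ± 0.0140 with JQ1. With TRAP-1-NegB it was 0.659% ± 0.0196 and 0.635% ± 0.00397, and with MS78 0.618% ± 0.0258 and 0.716% ± 0.00885. At each time every library of TRAP1, TRAP-1-NegP and JQ1 was above every library of the other 3 treatments.

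**Figure D1:**
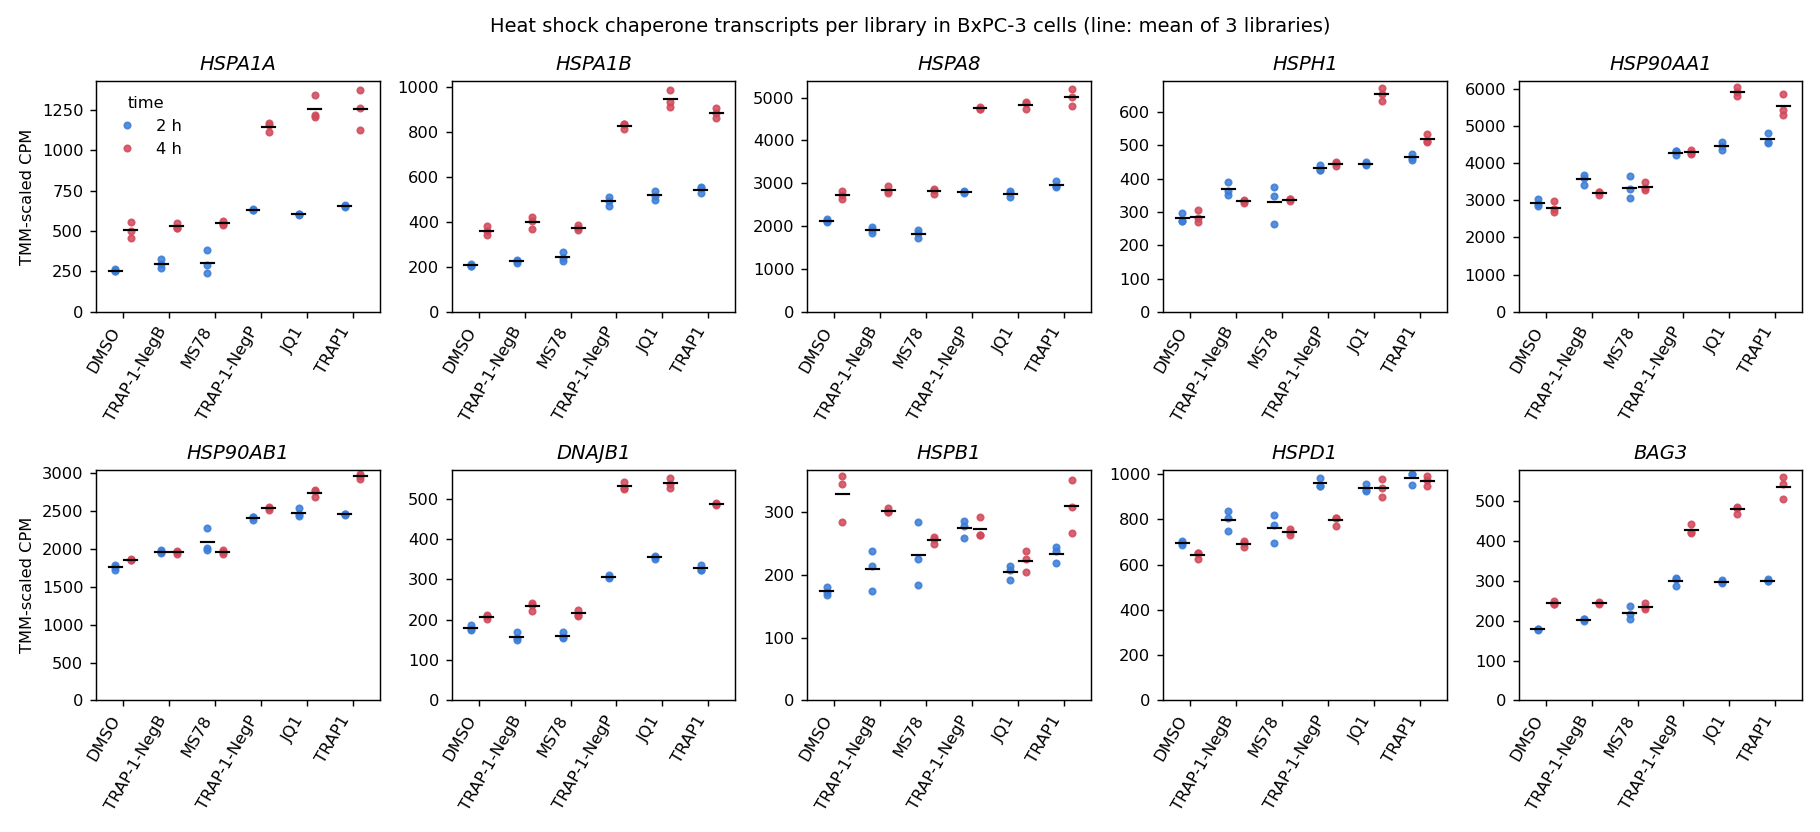
Level of each gene in TMM-scaled CPM (y axis from 0) for every library, by treatment (x axis) and time (blue 2 h, red 4 h), with a black line at the mean of 3 libraries. In 9 of the 10 panels the TRAP-1-NegP, JQ1 and TRAP1 points at each time lie above the DMSO points of that time, and HSPB1 is the panel that departs from this at 4 h.

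Against DMSO, most of the 10 genes rose with TRAP1, TRAP-1-NegP and JQ1 at both times, with the largest changes in HSPA1A, HSPA1B and DNAJB1. At 2 h all 10 rose with TRAP1, when 15.7% of the 14988 tested genes were called higher, and all 10 with TRAP-1-NegP, against 16.4% of tested genes. With JQ1 9 rose at 2 h, against 14.8% of tested genes, and the exception was HSPB1. At 4 h 9 rose with TRAP1 (22.2% of tested genes were called higher), 9 with TRAP-1-NegP (18.6%) and 9 with JQ1 (24.3%), HSPB1 again being the exception. A call here is an adjusted p under 0.05 in edgeR's quasi-likelihood test, adjusted by Benjamini-Hochberg over all tested genes. These are bulk libraries scaled to a common total, so fewer cells of a type and less RNA per cell cannot be told apart. Members' log2 changes had a median of 0.70 with TRAP1 at 2 h, where that of all tested genes was 0.01. The 5 comparisons of a time share the same 3 DMSO libraries, so their likeness is no separate evidence. Without TMM the median log2 change of all genes moved to −0.29 with TRAP1 at 4 h, −0.19 with TRAP-1-NegP and −0.14 with JQ1, and the members named as risen with these 3 compounds kept their calls. Without the TRAP1 library that stood apart the count with TRAP1 at 4 h was again 9.

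With TRAP-1-NegB and MS78 the changes were small, and they differed in direction between members. At 2 h TRAP-1-NegB raised 5 members (5.08% of tested genes were called higher) by log2 0.16 to 0.39, with HSPH1 the largest, and lowered HSPA8 (−0.16 ± 0.04 SE) and DNAJB1 (−0.18 ± 0.05), where 5.87% of tested genes were called lower. The calls for those which fell were lost in edgeR without single libraries, HSPA8 (then −0.12 to −0.08) without DMSO replicate 1 or 2 or TRAP-1-NegB replicate 2 or 3, and DNAJB1 (then −0.16 to −0.09) without any of them except TRAP-1-NegB replicate 2. Among the members not called, HSPA1B was called higher by DESeq2 (0.14), without TMM (0.15) and in a fit of only the groups compared (0.13), HSPA1A in that fit and without the count filter (0.24 in each), and HSPB1 without the count filter (0.28), where DNAJB1 (−0.16) lost its call. At 2 h MS78 gave 7 higher (8.3% of tested genes) and 2 lower (7.65%), again HSPA8 (−0.22 ± 0.04) and DNAJB1 (−0.15 ± 0.05). A fit of only the 6 libraries of MS78 and DMSO at 2 h called none of them, with edgeR adjusted p from 0.074 for BAG3 to 0.42 for HSPD1. With the replicate number as a block, HSPD1 lost its call (then 0.14, edgeR adjusted p = 0.053), which left 6 higher. HSPD1 also lost it without TMM (0.11), as did HSPH1 (0.20), and without the count filter (0.13), as did DNAJB1 (−0.16). HSPA1A, not called, was called higher by DESeq2 (0.26), without the count filter (0.24) and summed with HSPA1B (0.25). The MS78 2 h libraries spread widely: HSPA1A was at 380, 291 and 242 CPM, HSPH1 at 264, 347 and 375, and HSPB1 at 285, 226 and 184. Replicate 1 is the first value in each, and without it HSPB1, at 0.24, was no longer called and the count was 8. Leaving out MS78 2 h replicate 3 ended the call of HSP90AA1 (then 0.12) and raised HSPA1A from an uncalled 0.25 to a called 0.39, and HSPH1, HSPD1 and DNAJB1 lost theirs without any of 4 or 5 of the 6 libraries (then 0.12 to 0.22, 0.08 to 0.15 and −0.16 to −0.12).

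At 4 h TRAP-1-NegB left 1 member called, HSP90AA1, higher by 0.19 ± 0.05 where 0.827% of tested genes were called higher, and 5 of 10 had an unadjusted p under 0.05. That call was lost without any library but DMSO replicate 1, with values of 0.16 to 0.20, and without TMM (0.16). HSPH1 was called higher without the count filter (0.21) and in a fit of only the groups compared (0.22), and DNAJB1 by DESeq2 (0.17). MS78 at 4 h gave 3 higher, HSP90AA1 by 0.26 ± 0.05, HSPH1 by 0.24 ± 0.06 and HSPD1 by 0.21 ± 0.05, where 6.23% of tested genes were called higher. HSPB1 was lower by −0.37 ± 0.12, where 9.05% were called lower, and it lost that call (then −0.38 to −0.27) without any library but DMSO replicate 1. Without TMM HSPB1 (then −0.29, edgeR adjusted p = 0.056) was no longer called, and HSPA8 (0.12), HSP90AB1 (0.15) and DNAJB1 (0.13) were called higher, so that 6 were higher and 0 lower. DESeq2 also called HSP90AB1 higher (0.09). For the others the 95% intervals of the MS78 change at 4 h ran from −0.15 to 0.31. Those of the members not called with TRAP-1-NegB at 4 h ran from −0.37 to 0.34.

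**Figure D2:**
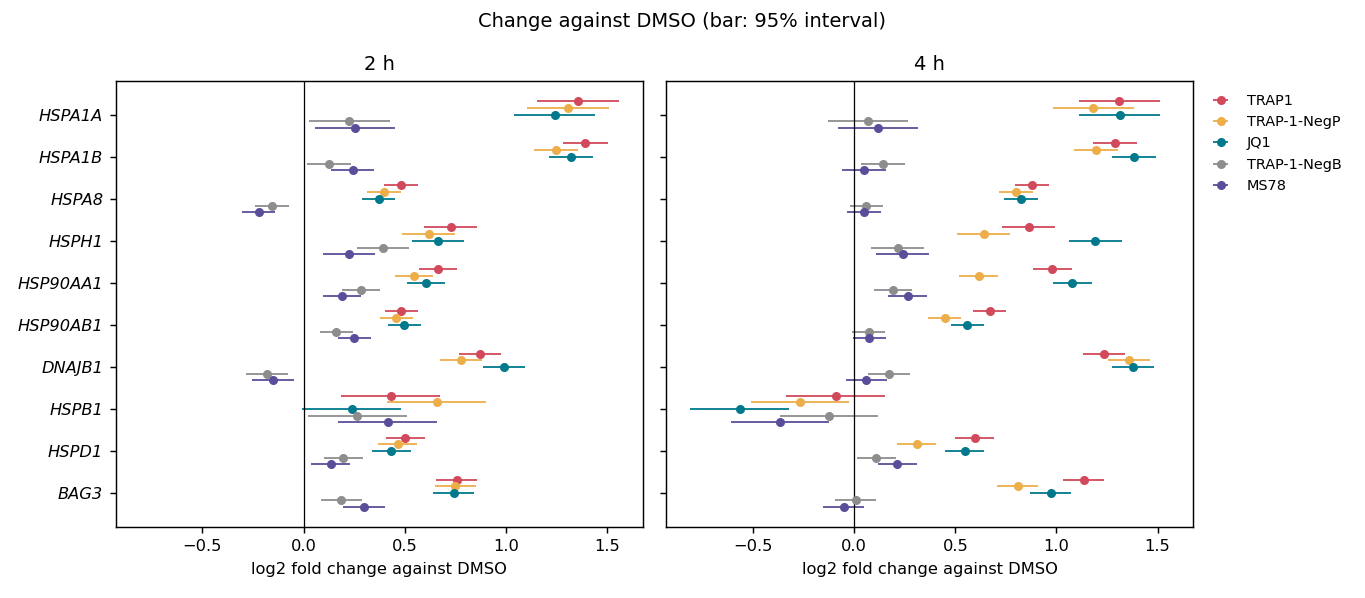
Log2 fold change of each gene against DMSO of the same time (x axis), for 5 compounds at 2 h (left) and 4 h (right), with 95% intervals from the edgeR fit. TRAP1, TRAP-1-NegP and JQ1 lie to the right of TRAP-1-NegB and MS78 for 9 genes at both times, and HSPB1 lies at or below 0 at 4 h.

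HSPA1A and HSPA1B encode the stress-inducible HSP70, and they were the most increased members at 2 h. In TMM-scaled CPM, the gene's share of the library's counts, HSPA1A stood at 263, 252 and 252 CPM in DMSO at 2 h and at 653, 662 and 648 with TRAP1. With TRAP-1-NegP it was at 632, 635 and 631, and with JQ1 at 599, 606 and 608. No library of these 3 compounds came near the DMSO libraries, and the log2 changes were 1.36 ± 0.10, 1.31 ± 0.10 and 1.24 ± 0.10. At 4 h the DMSO libraries were themselves higher, at 458, 501 and 557 CPM, and those of TRAP1 at 1124, 1264 and 1373. TRAP-1-NegP libraries stood at 1115, 1168 and 1159 and JQ1 libraries at 1216, 1206 and 1343. The changes against DMSO at 4 h, 1.31 ± 0.10, 1.18 ± 0.10 and 1.31 ± 0.10, therefore start from a higher base. HSPA1B gave 206, 204 and 212 CPM in DMSO and 551, 555 and 529 with TRAP1 at 2 h, a change of 1.39 ± 0.05. Its changes with TRAP-1-NegP and JQ1 were 1.25 ± 0.05 and 1.32 ± 0.05 at 2 h and 1.19 ± 0.05 and 1.39 ± 0.05 at 4 h, when TRAP1 gave 1.29 ± 0.05. With TRAP-1-NegB and MS78, HSPA1A lay between 242 and 380 CPM at 2 h and between 519 and 560 at 4 h. Its libraries overlapped DMSO with MS78 at both times and with TRAP-1-NegB at 4 h.

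HSPA8 encodes the constitutive HSC70. It was at 2157, 2123 and 2097 CPM in DMSO at 2 h and rose to 2921, 2937 and 3049 with TRAP1, a change of 0.48 ± 0.04. At 4 h it was at 2830, 2728 and 2621 CPM in DMSO and 5211, 5023 and 4808 with TRAP1, a change of 0.88 ± 0.04. TRAP-1-NegP (4743, 4738 and 4771) and JQ1 (4885, 4890 and 4722) were close to this at 4 h, with changes of 0.80 ± 0.04 and 0.83 ± 0.04. The groups did not overlap with DMSO at either time. In TMM-scaled CPM JQ1 at 4 h overlapped TRAP1 and TRAP-1-NegP, and these 3 groups lay above all others. Every TRAP1 library was above every TRAP-1-NegP library in TMM-scaled CPM, but that difference was not called in the fit of all libraries. In deposited TPM the 2 groups overlapped, at 2833, 2685 and 2508 with TRAP1 and 2786, 2807 and 2765 with TRAP-1-NegP. On that scale every JQ1 library at 4 h, at 3157, 3202 and 3021, was above both of these groups. The lowest of all 12 was MS78 at 2 h with 1821 ± 90.5 CPM (SD, n = 3).

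DNAJB1, the HSP40 that partners the inducible HSP70, had libraries of 174, 176 and 187 CPM in DMSO at 2 h. TRAP1 libraries were at 336, 322 and 324, TRAP-1-NegP at 306, 310 and 304 and JQ1 at 359, 350 and 356. The 4 groups were separate from one another, with changes of 0.87 ± 0.05, 0.78 ± 0.05 and 0.99 ± 0.05. By 4 h DMSO stood at 211, 209 and 202 CPM, TRAP1 at 487, 489 and 485, TRAP-1-NegP at 523, 527 and 541 and JQ1 at 551, 535 and 527. TRAP1 was then the lowest of the 3, with a change of 1.23 ± 0.05 against 1.36 ± 0.05 and 1.38 ± 0.05.

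BAG3 is an exchange factor of HSP70 that also directs damaged proteins to autophagy. Its libraries were at 179, 180 and 176 CPM in DMSO at 2 h, at 304, 300 and 299 with TRAP1, at 287, 307 and 306 with TRAP-1-NegP and at 302, 295 and 298 with JQ1. The 3 treated groups overlapped, with changes of 0.76 ± 0.05, 0.75 ± 0.05 and 0.74 ± 0.05. At 4 h they were separate: 544, 506 and 560 CPM with TRAP1, 469, 485 and 484 with JQ1 and 419, 422 and 442 with TRAP-1-NegP, above DMSO at 250, 242 and 241. The changes were 1.13 ± 0.05, 0.97 ± 0.05 and 0.81 ± 0.05. In deposited TPM the JQ1 mean at 4 h (265) was above that of TRAP1 (243).

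HSPH1 encodes HSP105 of the HSP110 family, an exchange factor for HSP70. It stood at 273, 296 and 273 CPM in DMSO at 2 h and 463, 456 and 475 with TRAP1, a change of 0.73 ± 0.06. At 4 h its JQ1 libraries, at 654, 673 and 633, were above those of TRAP1, at 514, 534 and 512, and these above TRAP-1-NegP, at 451, 438 and 447, while DMSO was at 307, 269 and 281. The changes at 4 h were 1.19 ± 0.07 with JQ1, 0.86 ± 0.06 with TRAP1 and 0.64 ± 0.06 with TRAP-1-NegP.

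The stress-inducible HSP90 gene HSP90AA1 was at 2907, 3032 and 2847 CPM in DMSO at 2 h and 4545, 4569 and 4808 with TRAP1, a change of 0.66 ± 0.05. At 4 h DMSO was at 2972, 2753 and 2671 and TRAP1 at 5848, 5417 and 5299, a change of 0.98 ± 0.05. JQ1 at 4 h, at 5905, 6036 and 5788, overlapped TRAP1, while TRAP-1-NegP at 4242, 4341 and 4283 lay below both. In deposited TPM JQ1 at 4 h, at 2426, 2507 and 2353, lay above TRAP1, at 2007, 1828 and 1744, without overlap. The more constitutive HSP90AB1 changed less. It was at 1867, 1847 and 1855 CPM in DMSO at 4 h and 2977, 2963 and 2917 with TRAP1. That TRAP1 group was the highest of the 12 in TMM-scaled CPM. In deposited TPM, without that scaling, its mean (1294) was below JQ1 at 2 h (1503) and at 4 h (1451). The change of HSP90AB1 at 4 h was 0.67 ± 0.04 with TRAP1, against 0.56 ± 0.04 with JQ1 and 0.45 ± 0.04 with TRAP-1-NegP. HSPD1 was at 706, 694 and 686 CPM in DMSO at 2 h and 1001, 952 and 1001 with TRAP1, a change of 0.50 ± 0.05. TRAP-1-NegP (0.46 ± 0.05) and JQ1 (0.43 ± 0.05) gave like values at 2 h. At 4 h HSPD1 rose by 0.60 ± 0.05 with TRAP1, 0.55 ± 0.05 with JQ1 and 0.31 ± 0.05 with TRAP-1-NegP. In deposited TPM its mean at 4 h was 494 with TRAP1, 583 with JQ1, 447 with TRAP-1-NegP and 540 with MS78. The DMSO mean was 417.

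HSPB1, the small heat shock protein HSP27, did not follow the other 9. In DMSO it was at 168, 173 and 180 CPM at 2 h and at 285, 345 and 358 at 4 h, and the 4 h group was the highest of the 12. At 2 h it was higher with TRAP1 (245, 238 and 220 CPM, a change of 0.43 ± 0.12, edgeR adjusted p = 0.0066) and with TRAP-1-NegP (277, 260 and 285, 0.66 ± 0.12). JQ1 libraries at 2 h, 214, 193 and 208 CPM, all lay above DMSO, but the change of 0.24 ± 0.12 was not called (95% interval −0.01 to 0.48), except in a fit of only those 6 libraries or without the count filter (then 0.22 in each). At 4 h JQ1 libraries were at 225, 205 and 238 CPM, below every DMSO library, and HSPB1 fell by 0.57 ± 0.12 on the log2 scale (edgeR adjusted p = 0.00025), where 24.6% of tested genes were called lower. TRAP-1-NegP at 4 h gave 264, 264 and 293 CPM and a change of −0.27 ± 0.12 that was not called (edgeR adjusted p = 0.078), but was without DMSO replicate 1 (then −0.36), without the count filter (−0.27) and in a fit of only those 6 libraries (−0.27). TRAP1 at 4 h gave 267, 309 and 352 CPM, which overlapped DMSO, and a change of −0.09 with a 95% interval from −0.33 to 0.15. Its sign rested on TRAP1 replicate 1, without which it was 0.003. Without TMM both of these were called lower, at −0.44 and −0.36.

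The design also sets the compounds beside one another at the same dose and time. TRAP1 and TRAP-1-NegP differed in none of the 10 genes at 2 h by the edgeR test, nor by DESeq2, where 0.801% of tested genes were called. At an unadjusted p under 0.05 there were 3, and the 95% intervals of the differences ran from −0.47 (HSPB1) to 0.25 (HSPA1B). A fit of only those 6 libraries called 5: HSPA1B (0.15), HSP90AA1 (0.12), HSPH1 (0.11) and HSPA8 (0.09) higher and HSPB1 (−0.22) lower with TRAP1. At 4 h 5 members were higher with TRAP1, where 7.25% of tested genes were called higher. These were HSP90AA1 by 0.36 ± 0.05, BAG3 by 0.33 ± 0.05, HSPD1 by 0.29 ± 0.05, HSP90AB1 by 0.22 ± 0.04 and HSPH1 by 0.22 ± 0.06. HSPH1 lost its edgeR call without TRAP-1-NegP replicate 2 or TRAP1 replicate 1 or 2 (then 0.20 to 0.23), and without TMM (then 0.13). The uncalled differences at 4 h had 95% intervals from −0.07 to 0.32 for HSPA1A, −0.01 to 0.20 for HSPA1B and −0.22 to −0.02 for DNAJB1. Without TMM DNAJB1 was called lower with TRAP1, at −0.22, and without both libraries that stood apart HSPA1A was called higher, at 0.20. HSPA8 was called higher in a fit of only those 6 libraries (0.09) and HSPB1 without the count filter (0.18).

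TRAP1 and JQ1 also differed in no member at 2 h by edgeR, where 1.99% of tested genes were called. The count was 2 at an unadjusted p under 0.05, 1 by DESeq2 (HSPA8, higher by 0.11 with TRAP1) and 2 in a fit of only those 6 libraries (HSPA8, 0.11, and HSPB1, 0.19). The 95% intervals ran from −0.22 (DNAJB1) to 0.44 (HSPB1). At 4 h 3 members were higher with TRAP1 (12.5% of tested genes), HSPB1 by 0.47 ± 0.12, BAG3 by 0.16 ± 0.05 and HSP90AB1 by 0.11 ± 0.04, and 2 were lower (14.9%), HSPH1 by −0.33 ± 0.06 and DNAJB1 by −0.14 ± 0.05. Calls of HSPB1 and HSPH1 held in edgeR without each library in turn. DNAJB1 lost its call without any of 5 of the 6 libraries (then −0.15 to −0.12), all but JQ1 replicate 3, and with DESeq2's size factors (−0.12) or without the count filter (−0.12). HSP90AB1 lost its call without any JQ1 library (then 0.10 to 0.12), and BAG3 without JQ1 replicate 1 (then 0.15). Without TMM HSP90AB1 turned to −0.03, BAG3 was at 0.02, and HSPA1B (−0.24) and HSP90AA1 (−0.24) were called lower with TRAP1. HSP90AA1 was also called lower without both libraries that stood apart (−0.13).

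JQ1 against TRAP-1-NegP gave 1 member higher at 2 h (5.65% of tested genes), DNAJB1 by 0.21 ± 0.05, and 1 lower (7.26%), HSPB1 by −0.42 ± 0.12. The HSPB1 call was lost without JQ1 replicate 2 or TRAP-1-NegP replicate 1 or 3 (then −0.41 to −0.37). At 4 h 6 members were higher with JQ1, where 12.9% of tested genes were: HSPH1 by 0.55 ± 0.06, HSP90AA1 by 0.46 ± 0.05, HSPD1 by 0.24 ± 0.05, HSPA1B by 0.19 ± 0.05, BAG3 by 0.16 ± 0.05 and HSP90AB1 by 0.11 ± 0.04. The HSP90AB1 call was lost without any of the 6 libraries (then 0.10 to 0.12), that of BAG3 without TRAP-1-NegP replicate 1 (then 0.15), and that of HSPA1B when its counts were summed with HSPA1A (then 0.16). Without the count filter HSP90AB1 (0.09) and BAG3 (0.14) lost theirs. HSPB1 libraries were all lower with JQ1 at 4 h than with TRAP-1-NegP, by −0.30 ± 0.12, which was not called (edgeR adjusted p = 0.067). It was called lower by DESeq2 (−0.31), without the count filter (−0.32) and in a fit of only those 6 libraries (−0.31), a fit that also called HSPA1A higher (0.12). HSPA8 and DNAJB1 differed by 0.02 each at 4 h, with 95% intervals from −0.06 to 0.11 and −0.08 to 0.12.

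**Figure D3:**
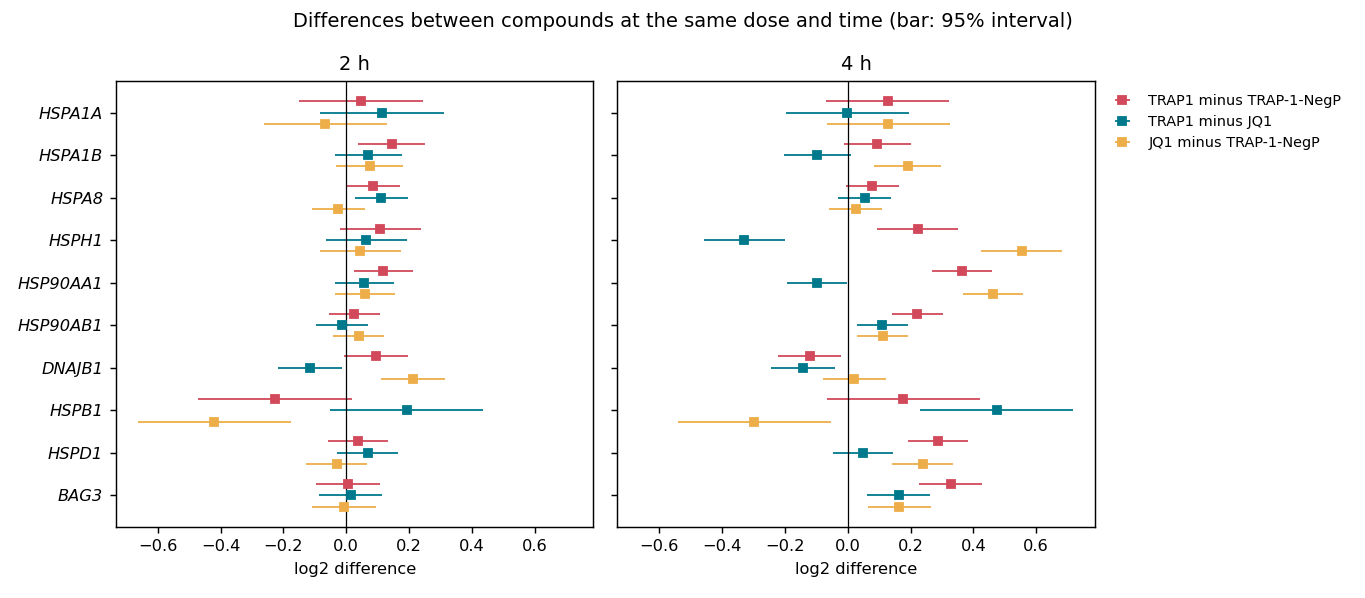
Log2 difference of each gene between pairs of compounds (x axis) at 2 h (left) and 4 h (right), with 95% intervals from the edgeR fit. At 2 h most intervals include 0, and at 4 h HSPH1 and HSP90AA1 were higher with JQ1 and TRAP1 than with TRAP-1-NegP.

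TRAP1 was above TRAP-1-NegB in 9 members at 2 h (11.6% of tested genes) and the same number at 4 h (22%), by log2 0.30 to 1.27 and 0.49 to 1.24. It was above MS78 in 9 at 2 h (12%) and 9 at 4 h (23.9%), by 0.23 to 1.15 and 0.38 to 1.24. HSPB1 was the member without a call in each, with 95% intervals from −0.08 to 0.41 and −0.21 to 0.27 against TRAP-1-NegB, and −0.23 to 0.26 and 0.03 to 0.52 against MS78. At 4 h it was called higher with TRAP1 than with MS78 under 8 other settings, by 0.25 to 0.35: with DESeq2's size factors or Wald test (0.28 in each), no count filter (0.25), a stricter one (0.28), length-scaled counts (0.28), only the groups compared (0.26), and without TRAP1 4 h replicate 1 or both libraries that stood apart (0.35 in each). HSP90AB1 lost its call against MS78 at 2 h in a fit of only the groups compared (then 0.22). Without TMM HSPH1 lost its call against TRAP-1-NegB at 2 h (then 0.19) and HSPD1 that against MS78 at 4 h (then 0.04). TRAP-1-NegP was above TRAP-1-NegB in all 10 at 2 h (15% of tested genes) and in 9 at 4 h (17.8%), with the largest differences in HSPA1B (1.12 ± 0.05) and HSPA1A (1.08 ± 0.10) at 2 h and DNAJB1 (1.18 ± 0.05) at 4 h. At 2 h the call of HSPB1 (0.39 ± 0.12) was lost without any of 4 libraries, replicate 1 or 2 of TRAP-1-NegB and replicate 1 or 3 of TRAP-1-NegP (then 0.28 to 0.37). That of HSPH1 (0.23 ± 0.06) was lost without replicate 2 or 3 of TRAP-1-NegB or replicate 1 of TRAP-1-NegP (then 0.14 to 0.19). Without TMM both lost their calls at 2 h, as did HSP90AA1 (then 0.10) and HSPD1 (then 0.11), and HSPD1 also at 4 h (then 0.06), when HSPB1 was called lower (−0.29), as it was at 4 h in a fit of only the groups compared (−0.15). MS78 and TRAP-1-NegB differed in no member at 2 h or 4 h by edgeR, where 3.17% and 8.93% of tested genes were called. Unadjusted p-values under 0.05 numbered 5 and 3, DESeq2 called 0 and 1 (HSPD1 at 4 h, 0.12), and the 95% intervals ran from −0.30 to 0.39 and from −0.49 to 0.24. Without MS78 2 h replicate 3, edgeR called 3 at 2 h: BAG3 higher (0.15) and HSP90AA1 (−0.17) and HSPH1 (−0.28) lower with MS78. At 4 h HSPD1 (0.21), HSP90AA1 (0.18) and HSP90AB1 (0.11) were called higher with MS78 without TMM, and HSPB1 lower without the count filter (−0.22) and, beside HSPD1 (0.11), in a fit of only the groups compared (−0.24).

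The vehicle was not constant over time. From 2 h to 4 h in DMSO 6 members rose, where 11.4% of tested genes were called higher: HSPA1A by 0.98 ± 0.10, HSPB1 by 0.92 ± 0.12, HSPA1B by 0.81 ± 0.05, BAG3 by 0.45 ± 0.05, HSPA8 by 0.36 ± 0.04 and DNAJB1 by 0.21 ± 0.05. The 4 not called had 95% intervals from −0.10 to 0.16 for HSPH1, −0.16 to 0.03 for HSP90AA1, 0.002 to 0.16 for HSP90AB1 and −0.21 to −0.02 for HSPD1. HSPD1 was called lower without TMM (−0.19), without the count filter (−0.14) and in a fit of only those 6 libraries (−0.12), and HSP90AB1 higher with length-scaled counts (0.10) and by DESeq2 (0.08).

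The change against DMSO was then compared between the times, as the 4 h change minus the 2 h change in 1 model. HSPA8 and DNAJB1 gained with every compound in the edgeR fit of all libraries. With MS78 and TRAP-1-NegB both genes were called lower than DMSO at 2 h in that fit and were not called at 4 h. HSPA8 gained 0.46 ± 0.06 with JQ1, 0.41 ± 0.06 with TRAP-1-NegP, 0.40 ± 0.06 with TRAP1, 0.27 ± 0.06 with MS78 and 0.22 ± 0.06 with TRAP-1-NegB. HSPH1 gained 0.53 ± 0.09 with JQ1, while its difference with TRAP1 was 0.14 (95% interval −0.05 to 0.32) and with TRAP-1-NegP 0.02 (−0.16 to 0.20). HSPB1 moved the other way: its change against DMSO dropped by 0.93 ± 0.17 with TRAP-1-NegP, 0.80 ± 0.17 with JQ1, 0.78 ± 0.17 with MS78 and 0.52 ± 0.17 with TRAP1. With TRAP-1-NegB the HSPB1 difference was not called, but it was called lower without the count filter (−0.41). For HSPA1A no compound gave a call, with 95% intervals from −0.44 to 0.35. In all, the members with a gain and with a loss numbered 5 and 1 with TRAP1 (10.2% and 11.8% of tested genes), 2 and 1 with TRAP-1-NegP (11% and 12.2%), 2 and 0 with TRAP-1-NegB (1.87% and 0.607%), 5 and 1 with JQ1 (13.2% and 12.8%) and 2 and 3 with MS78 (6.89% and 8.33%). Without TMM the members with a gain and with a loss were 3 and 2 with TRAP1, since HSP90AA1 (0.17) and HSP90AB1 (0.04) lost their calls and HSPA1B (−0.25) gained one. They were 1 and 1 with TRAP-1-NegB, where HSPA8 (0.16) lost its call and BAG3 (−0.24, and −0.19 by DESeq2) gained one. With TRAP-1-NegP HSPD1 (−0.19) was then called lower, and with MS78 HSP90AB1 (−0.07) was no longer called. HSPA8 with TRAP-1-NegB lost its call without any of 10 of the 12 libraries (then 0.14 to 0.22), DNAJB1 with MS78 without any of 4 (then 0.19 to 0.22), and HSPB1 with TRAP1 without TRAP1 2 h replicate 1 or 2 or TRAP1 4 h replicate 1 (then −0.51 to −0.42). All 5 comparisons of this kind share the DMSO libraries of both times.

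**Figure D4:**
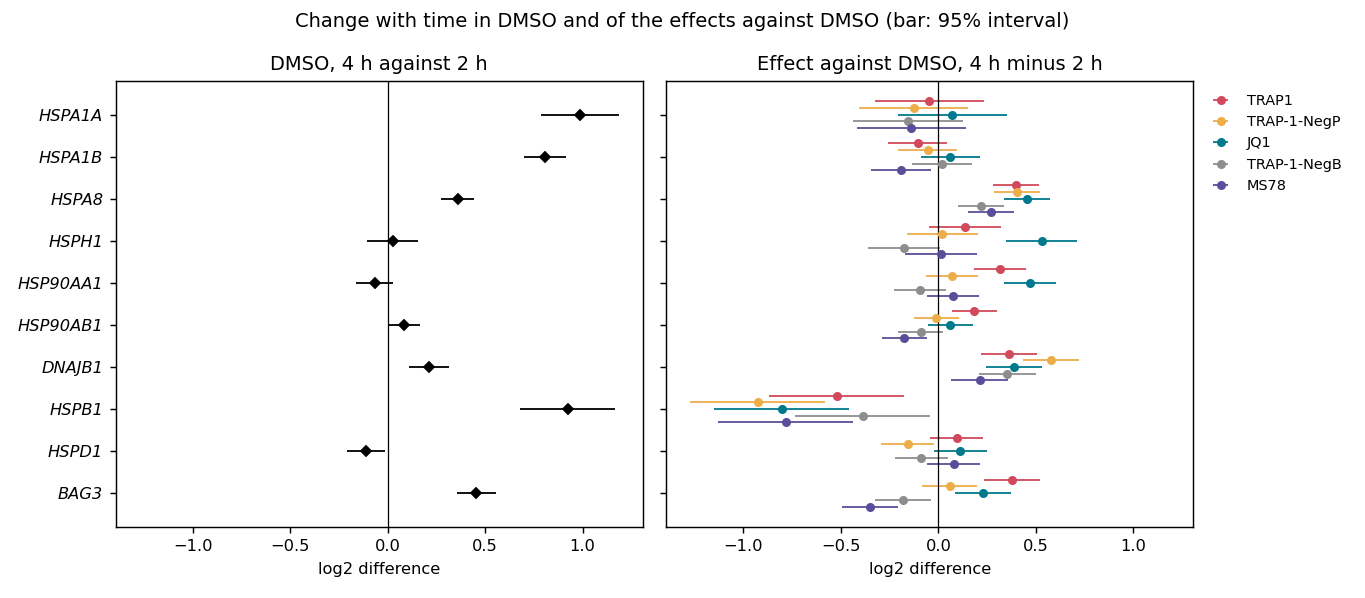
Left, log2 difference of each gene between 4 h and 2 h in DMSO. Right, change of each compound's effect against DMSO between the times (4 h minus 2 h), with 95% intervals from the edgeR fit, on the same x axis. HSPB1 has a high value on the left and the lowest values on the right.

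Other genes of the stress pathways were counted from lists chosen by function. The lists, like the 10 members, were chosen with earlier results of these data known. Their counts and medians therefore describe these data and are no test. Of 20 further genes known as heat shock factor targets, 19 were tested (CRYAB was not), and 12 rose and 1 fell with TRAP1 at 2 h, 11 rose and 3 fell at 4 h. With TRAP-1-NegP it was 13 and 2, then 8 and 2, with JQ1 10 and 1, then 8 and 3, with TRAP-1-NegB 2 and 1, then 0 and 0, and with MS78 4 and 0, then 4 and 3. Of all tested genes 15.7% and then 22.2% were called higher with TRAP1, 16.4% and 18.6% with TRAP-1-NegP and 14.8% and 24.3% with JQ1. With TRAP-1-NegB 5.08% and 0.827% were higher, and with MS78 8.3% and 6.23%. Called lower were 14.3% and then 24.5% with TRAP1, 13.9% and 18.9% with TRAP-1-NegP and 13.9% and 24.6% with JQ1. With TRAP-1-NegB 5.87% and 0.2% were lower, and with MS78 7.65% and 9.05%. The small counts with TRAP-1-NegB say little beside these shares. The median change with TRAP1 was 0.27 at 2 h and 0.26 at 4 h, beside 0.01 and −0.02 over all tested genes. IER5, an immediate early gene whose product acts on HSF1, rose by 0.99 ± 0.07 with TRAP1 at 2 h and 1.38 ± 0.07 at 4 h, and DNAJA4, a J-protein, by 0.78 ± 0.08 at 4 h. HSPB8, the small heat shock protein that works with BAG3, fell with TRAP1 (−0.36 ± 0.11 and −0.72 ± 0.11), and with JQ1 (−0.45 ± 0.11 and −1.39 ± 0.11). HSPA6, an HSP70 gene found at very low level without strong stress, was at 1.67 CPM in DMSO and 3.39 with TRAP1 at 2 h, and its change of 1.02 ± 0.45 was not called; it was chosen after its values were seen.

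The mRNAs of the heat shock factors themselves were also measured. HSF1 was at 118 CPM in DMSO at 2 h and 161 at 4 h. With TRAP1 its changes of 0.18 ± 0.10 and −0.13 ± 0.10 were not called, with TRAP-1-NegP it rose at 2 h (0.33 ± 0.10) and was at −0.22 ± 0.10 at 4 h, and with JQ1 it fell at 4 h (−0.53 ± 0.10) after 0.11 ± 0.10 at 2 h. HSF2 fell at 2 h with TRAP1 (−0.56 ± 0.17) and JQ1 (−0.48 ± 0.17). HSF4 was at 0.85 CPM in DMSO at 2 h, and its 10 changes against DMSO, from −0.93 to 1.03, were not called. HSBP1, which encodes a binding protein of HSF1, rose by 0.18 ± 0.06 with TRAP1 at 4 h and fell with MS78 at both times (−0.22 ± 0.06 and −0.18 ± 0.06). Over the 4 genes, 0 rose and 1 fell with TRAP1 at 2 h and 1 rose and 0 fell at 4 h. With TRAP1, 15.7% of all tested genes were called higher and 14.3% lower at 2 h, and 22.2% and 24.5% at 4 h. With MS78, 1 of the 4 rose and 1 fell at 2 h, and 0 rose and 1 fell at 4 h. Of all tested genes 8.3% were then called higher and 7.65% lower at 2 h, and 6.23% and 9.05% at 4 h. Counts over 4 genes say little beside these shares.

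Most endoplasmic reticulum chaperones rose with TRAP1 and JQ1. Of 15, 12 rose and 0 fell with TRAP1 at 2 h and 13 rose and 1 fell at 4 h, and with JQ1 12 and then 13 rose and 0 fell. HSPA5, the HSP70 of that compartment, rose by 0.97 ± 0.04 and 1.34 ± 0.04 with TRAP1, and HSP90B1, its HSP90, by 0.88 ± 0.06 and 0.93 ± 0.06. With TRAP-1-NegP 9 and then 11 rose, with TRAP-1-NegB 6 and 1, and with MS78 6 and 8, with 0 lower. Of all tested genes 15.7% and then 22.2% were called higher with TRAP1, 14.8% and 24.3% with JQ1, 16.4% and 18.6% with TRAP-1-NegP, 5.08% and 0.827% with TRAP-1-NegB and 8.3% and 6.23% with MS78. The list's median change with TRAP1 was 0.44 at 2 h and 0.52 at 4 h, beside 0.01 and −0.02 over all tested genes.

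Other co-chaperones and folding machines were mixed. Their counts with TRAP1 stand beside 15.7% of all tested genes called higher and 14.3% called lower at 2 h, and 22.2% and 24.5% at 4 h. Of 15 further HSP70 and HSP90 co-chaperones, 6 rose and 2 fell with TRAP1 at 2 h and 5 rose and 2 fell at 4 h, with a median of 0.21 and then −0.02. SUGT1, a co-chaperone of HSP90, rose by 0.84 ± 0.09 and 0.68 ± 0.09, FKBP5, an HSP90-binding prolyl isomerase, by 1.25 ± 0.14 at 4 h, and BAG5 fell at 2 h (−0.46 ± 0.10). Of 15 further J-proteins of cytosol and nucleus, 5 rose and 3 fell, then 4 rose and 5 fell, which at 4 h is near the shares over all tested genes. Among them were DNAJB6 (0.36 ± 0.06 and 0.79 ± 0.06, higher) and DNAJC14 (−0.57 ± 0.10 and −1.45 ± 0.11, lower). Of 14 subunits of the cytosolic chaperonin TRiC and of prefoldin, 8 rose and 1 fell, then 10 rose and 2 fell, with TCP1 at 0.43 ± 0.05 and 0.54 ± 0.05, CCT8 at 0.52 ± 0.05 and 0.53 ± 0.05, and the prefoldin subunit PFDN1 lower at 4 h (−0.53 ± 0.10). Of 10 further mitochondrial chaperones and proteases, 6 rose and 1 fell, then 3 rose and 1 fell. HSPE1, the co-chaperonin of HSPD1, rose by 0.26 ± 0.07 and 0.45 ± 0.07, and the protease subunit gene CLPP fell (−0.40 ± 0.11 and −0.63 ± 0.11).

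Across the 12 group means of log2 CPM, the members other than HSPB1 were correlated with one another at Pearson r from 0.45 to 0.99, highest for the pair HSPA1A and HSPA1B, which share reads. HSPB1 correlated with the other 9 at −0.11 to 0.48. These are descriptions over 12 groups that share libraries and scaling. Among 10316 other genes with a mean of at least 5 CPM, those most like each member were QPCTL for HSPA1A (r = 0.978), LEPRE1 for HSPA1B (0.978), MANF for HSPA8 (0.982), CTR9 for HSPH1 (0.988) and PNRC2 for HSP90AA1 (0.990). For HSP90AB1 it was RAB7A (0.985), for DNAJB1 HERPUD1 (0.992), for HSPB1 RAB11B (0.957), for HSPD1 TCP1 (0.987) and for BAG3 GNAI2 (0.993). POR was among the 3 most alike for HSPA1A, HSPA1B and BAG3, QPCTL for both HSPA1A and HSPA8, and CTR9 for both HSPH1 and HSP90AA1.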

How the data were processed

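Reads were quantified with Salmon 1.10.3 in nf-core/rnaseq 3.18.0 on hg38, per the submitters' processing notes and the series' design text, with no annotation release stated in them. The authors deposited estimated counts per gene, the same length-scaled, and TPM per gene and transcript. Estimated counts were rounded and scaled by TMM, and CPM computed here. All 36 libraries entered 1 edgeR 4.0.16 fit (R 4.3.3; filterByExpr with a minimum count of 10, robust quasi-likelihood fit, 12 groups). Benjamini-Hochberg adjustment ran over 14988 genes in each of 30 comparisons, 14 of them between compounds. Levels between genes use the deposited TPM. The procedure was tested on simulated data.

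The members and lists were chosen with earlier results of these data known. All members are named; of each other list, up to 4 genes per direction by adjusted p, all heat shock factors, and from the 3 genes most like each member the first, with those shared by members; 1 such gene is not reported here. Columns were matched to samples by library name. Alternatives were DESeq2 size factors, no TMM, the DESeq2 1.42.0 Wald test, 2 other count filters, length-scaled counts, HSPA1A and HSPA1B summed, a replicate block, leaving out each library in turn, a fit of only the groups compared, and both libraries that stood apart removed. Promoter windows are RefSeq's, and figures were drawn with matplotlib. Gene identity came from the table's names.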

Additional observations from a re-analysis of the deposited data

Results flagged for a closer look

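The change against DMSO differed between 4 h and 2 h for 22 of 50 pairs of compound and gene, by a test of the difference itself (edgeR's quasi-likelihood test of the interaction, adjusted by Benjamini-Hochberg over 14988 genes). Values are the 4 h log2 change minus the 2 h log2 change, and the DMSO libraries are shared by all 5 compounds. With TRAP1 the difference was 0.40 for HSPA8, 0.32 for HSP90AA1, 0.19 for HSP90AB1, 0.36 for DNAJB1, 0.38 for BAG3 and −0.52 for HSPB1. HSP90AB1 was not called without DMSO 2 h replicate 2 (then 0.15), and HSPB1 not without TRAP1 2 h replicate 1 or 2 or TRAP1 4 h replicate 1 (then −0.51 to −0.42). Without TMM HSP90AA1 (0.17) and HSP90AB1 (0.04) were not called.

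With TRAP-1-NegP it was 0.41 for HSPA8, 0.58 for DNAJB1 and −0.93 for HSPB1. JQ1 gave 0.46 for HSPA8, 0.53 for HSPH1, 0.47 for HSP90AA1, 0.39 for DNAJB1, 0.23 for BAG3 and −0.80 for HSPB1. TRAP-1-NegB gave 0.22 for HSPA8, which was not called without any of 10 of the 12 libraries (then 0.14 to 0.22), all but TRAP-1-NegB 2 h replicate 1 and 4 h replicate 1, and 0.35 for DNAJB1.

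MS78 gave 0.27 for HSPA8, 0.21 for DNAJB1, −0.18 for HSP90AB1, −0.78 for HSPB1 and −0.35 for BAG3. HSP90AB1 was not called without any of 8 of the 12 libraries (then −0.17 to −0.11), all but DMSO 2 h replicate 2, MS78 2 h replicates 2 and 3 and MS78 4 h replicate 3. DNAJB1 was not called without DMSO replicate 3 of either time, MS78 2 h replicate 2 or MS78 4 h replicate 2 (then 0.19 to 0.22).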

How the results depend on the processing

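Counts are members called of 10 in edgeR unless stated. With library totals in place of TMM, TRAP-1-NegB against DMSO at 4 h gave 0 (1 as reported), TRAP-1-NegP against TRAP-1-NegB at 2 h 6 (10) and MS78 against TRAP-1-NegB at 4 h 3 (0). With no count filter, TRAP-1-NegB against DMSO at 4 h gave 2, and MS78 against TRAP-1-NegB 1 at 2 h and 1 at 4 h. With only the groups compared, MS78 against DMSO at 2 h gave 0 (9), TRAP-1-NegB against DMSO at 4 h 2, TRAP1 against TRAP-1-NegP at 2 h 5 (0), TRAP1 against JQ1 at 2 h 2 (0), MS78 against TRAP-1-NegB at 4 h 2 and the MS78 effect, 4 h minus 2 h, 3 (5). DESeq2's Wald test gave 2 for TRAP-1-NegB against DMSO at 4 h, 1 for TRAP1 against JQ1 at 2 h and 1 for MS78 against TRAP-1-NegB at 4 h. The cause of these differences was not tested.

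Leaving out each library in turn, the counts against DMSO ran from 5 to 6 (TRAP-1-NegB, 2 h), 6 to 8 (MS78, 2 h), 9 to 10 (TRAP-1-NegP, 4 h), 0 to 1 (TRAP-1-NegB, 4 h) and 3 to 4 (MS78, 4 h). They ran from 4 to 5 for TRAP1 against TRAP-1-NegP, 2 to 4 for TRAP1 against JQ1, 9 to 10 for TRAP1 against MS78 and 4 to 5 for JQ1 against TRAP-1-NegP at 4 h. At 2 h they ran from 1 to 2 for JQ1 against TRAP-1-NegP, 0 to 3 for MS78 against TRAP-1-NegB and 8 to 10 for TRAP-1-NegP against TRAP-1-NegB. For the effect, 4 h minus 2 h, they ran from 5 to 6 (TRAP1), 1 to 2 (TRAP-1-NegB) and 3 to 5 (MS78). The other 15 counts did not move.

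Some signs turned. Without TMM, BAG3 went to −0.0259 with TRAP-1-NegB and 0.0198 with MS78 against DMSO at 4 h, and HSP90AB1 to −0.0313 in TRAP1 against JQ1 at 4 h. HSPB1 with TRAP1 against DMSO at 4 h ran from −0.198 to 0.00327 with single libraries left out, the highest without TRAP1 replicate 1, and was 0.00323 without both libraries that stood apart. BAG3 with TRAP-1-NegB at 4 h ran from −0.00112, without TRAP-1-NegB replicate 1, to 0.0274. A further 103 of 4900 values, from −0.21 to 0.09, changed sign with neither value called.

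In 25 pairs of groups, same-numbered libraries deviated with correlations from −0.29 to 0.33. All 3 correlations were over 0.1 in MS78 against DMSO at 2 h (0.205, 0.222 and 0.209) and TRAP1 against JQ1 at 2 h (0.173, 0.106 and 0.129), and in no other pair. With 2 of 25 pairs, this does not show that the numbers pair the libraries. With the replicate block, 299 of 300 member values kept their side of the threshold. The 1 that did not was HSPD1 with MS78 against DMSO at 2 h, at 0.14 with an edgeR adjusted p of 0.053, so that count was 8. HSF4 and HSPA6 were at low levels, while the lowest member value in any library was 149 CPM (DNAJB1, TRAP-1-NegB at 2 h). The part of depth was not tested.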

Other observations

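Transcript-level TPM of HSP90AB1 was divided among 6 annotated transcripts. The transcript XM_005249075.1 took 1.67%, 0.377% and 0% of the gene's TPM in the 3 DMSO libraries at 2 h. Its group means elsewhere lay between 13.3% (JQ1, 2 h) and 39.8% (TRAP-1-NegP, 2 h), and in DMSO at 4 h its libraries were at 26.7%, 27.3% and 15.1%. NM_007355.3 took 94.8% ± 0.964 (SD, n = 3) in DMSO at 2 h and group means of 55.7% to 81.5% elsewhere. Salmon estimates such shares from reads that fit several transcripts, and the pattern was chosen after its values were seen.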
